A study of Mus musculus with 4 samples.

Results

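Osteopontin, the secreted protein encoded by Spp1, and the 8 genes that encode its best known receptors (Cd44 and the integrin chains Itgav, Itgb1, Itgb3, Itgb5, Itga4, Itga5 and Itga9) were followed through a cortical injury in mice, as 9 of the 32285 genes counted. The 9 genes were chosen by name, with earlier results of these data known. Whole-transcriptome spatial profiling (Visium, in which each barcoded spot of a tissue section captures RNA from several cells) was carried out on coronal brain sections with a photothrombotic injury, in which light activates a dye that clots the vessels of the cortex. Of 8 slices on 4 capture areas, each from a single mouse, 1 was from an uninjured wild-type brain (rest), 1 was taken at 2 days post injury (dpi), 2 at 7 dpi and 2 at 21 dpi, all wild type, and 2 came from 21 dpi mice of the genotype Cthrc1(creER); R26(DTA), in which tamoxifen-activated Cre in Cthrc1-expressing cells turns on diphtheria toxin A. The study's methods set the deleter slices aside because no loss of these cells could be detected, so they were left out of the tests between times and zones, and are given beside the wild type or in a comparison of their own. All injured slices, deleter slices included, carried the same kind of injury. The study's mouse lines were generally kept on a C57BL/6 background and used in both sexes at 7 to 21 weeks of age unless stated otherwise.

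The slices held 827 to 1726 tissue spots and 11332780 to 23677298 unique molecular identifiers (UMIs, each a captured RNA molecule) each. Median UMIs per spot were 12447 to 16158 in 7 slices and 2634 in the 2 dpi slice, where 21.7% of spots had under 1000. Rest and 2 dpi shared a capture area, while 7 dpi, 21 dpi wild type and 21 dpi deleter each filled one, so that time or genotype and capture area cannot be told apart between those groups. The section was checked against brain markers. In whole slices the summed neuron list held 24.0 to 45.9 UMIs per 10000, the astrocyte list 18.9 to 33.0 and the oligodendrocyte list 59.9 to 108. Levels below are UMIs of a gene per 10000 UMIs of all genes, summed over the spots of a slice or zone. As reads come from the 3′ end of transcripts with unknown efficiency per gene, levels were not compared between genes. A lower level may come from fewer cells of a type or from less RNA per cell, and the 2 cannot be told apart in spots.

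Osteopontin is a phosphorylated glycoprotein of mineralized bone that macrophages, activated microglia and other cells also release at sites of injury, where it acts both in the matrix and as a cytokine. An arginine-glycine-aspartate motif binds αv integrins (αvβ1, αvβ3, αvβ5) and α5β1, a neighbouring site that cleavage by thrombin or matrix metalloproteinases exposes binds α4β1 and α9β1, and CD44, the main hyaluronan receptor, is engaged through a separate part of the protein. Integrins reach the surface only as a pair of an α and a β chain, so a receptor needs both genes to be expressed in the same cell.

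Spp1 (ENSMUSG00000029304) lies on chromosome 5 of GRCm38 from 104435118 to 104441050 on the plus strand, and its first promoter entry is shown because it carries the core letters bound by RUNX factors, which are known to drive the gene in bone-forming cells. The sequences run from 250 bases before to 50 bases after the RefSeq transcription start (GRCm38.p6), and capitals mark TGTGGT or its reverse complement ACCACA, searched on both strands. Entries were found for 8 of the 9 genes (9 entries in all, 2 of them for Spp1), and 2 entries held these letters, against 16.8% of all 32851 mouse promoter entries. The other was that of Itga4. The Spp1 match lies 128 bases before the start and the Itga4 match 60 bases before it.
Spp1, chr5:104434861-104435160, plus strand: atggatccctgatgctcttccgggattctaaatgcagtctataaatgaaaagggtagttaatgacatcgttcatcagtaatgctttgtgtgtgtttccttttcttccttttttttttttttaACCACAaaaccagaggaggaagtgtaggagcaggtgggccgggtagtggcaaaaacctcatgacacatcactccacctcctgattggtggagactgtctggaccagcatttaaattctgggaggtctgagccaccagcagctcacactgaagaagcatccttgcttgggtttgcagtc
Itga4, chr2:79255176-79255475, plus strand: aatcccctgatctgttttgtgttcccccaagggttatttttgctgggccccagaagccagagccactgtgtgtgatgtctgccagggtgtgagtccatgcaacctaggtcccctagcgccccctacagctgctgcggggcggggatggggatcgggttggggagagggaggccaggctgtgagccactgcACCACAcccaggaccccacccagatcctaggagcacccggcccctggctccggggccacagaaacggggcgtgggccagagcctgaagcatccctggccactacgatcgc
A match of 6 letters is a description of the window and not evidence of binding. The second Spp1 entry and those of Cd44, Itgav, Itgb1, Itgb5, Itga5 and Itga9 did not hold them. The Itga9 entry begins at 118711442, inside the gene, whose annotated start is 118606690, so the window at that start was not searched.

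Spp1 RNA was nearly absent from the uninjured brain, was present at 2 dpi, was highest at 7 dpi and was lower again at 21 dpi. The rest slice held 170 Spp1 UMIs, a level of 0.104 per 10000 (exact Poisson 95% interval 0.089 to 0.121), and the 2 dpi slice 5979, a level of 4.57 (4.45 to 4.68). These intervals cover counting error only, as rest and 2 dpi had 1 slice each and no test between them was possible. The 7 dpi slices held 26.8 and 60.6 Spp1 UMIs per 10000, the 21 dpi wild-type slices 6.44 and 9.02, and the deleter slices 10.5 and 3.18. Both 7 dpi slices lay above all other slices, and the rest slice lay below all others. Summed over whole slices, Spp1 was 2.55 log2 units higher at 7 than at 21 dpi (standard error, SE, 0.44), which did not pass an adjusted p of 0.05 (edgeR quasi-likelihood test with Benjamini-Hochberg adjustment, adjusted p = 0.141, n = 2 and 2 slices). Without the first 7 dpi slice the difference was 3.03 with an adjusted p of 0.0225 in the same test, and without the second it was 1.82 with an adjusted p of 0.0681.

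The spread of Spp1 within a section also differed between times. In spots thinned to 5000 UMIs, Spp1 was detected in 5.38% of 986 spots at rest and 38.5% of 715 spots at 2 dpi. These 715 are the deeper spots of 1726, so the share leaves out the RNA-poor tissue of the 2 dpi slice. The shares were 83.8% and 72.0% at 7 dpi, and 38.7% and 46.3% in wild-type slices at 21 dpi. Unthinned shares were 12.0% at rest, 50.7% at 2 dpi, 98.0% and 87.9% at 7 dpi, and 54.3% and 62.4% at 21 dpi. As free RNA reaches neighbouring spots, a spot with an Spp1 UMI need not hold a cell that makes it. Spots with at least 100 Spp1 UMIs per 10000 numbered 94 and 193 at 7 dpi (9.61% and 20.4% of spots), 3 and 12 at 21 dpi in wild type, 16 at 2 dpi and 0 of 1017 at rest. At 7 dpi the richest 10% of spots held 57.2% and 56.9% of all Spp1 UMIs. In wild-type slices at 21 dpi the richest 10% held 83.3% and 74.5%, a larger share than in either 7 dpi slice. The rest slice, with 170 Spp1 UMIs, had 88.2%, so a high share can also go with few UMIs. Of all UMIs, the richest 10% held 7.62% and 12.0% at 7 dpi and 14.4% and 11.5% at 21 dpi.

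**Figure D1:**
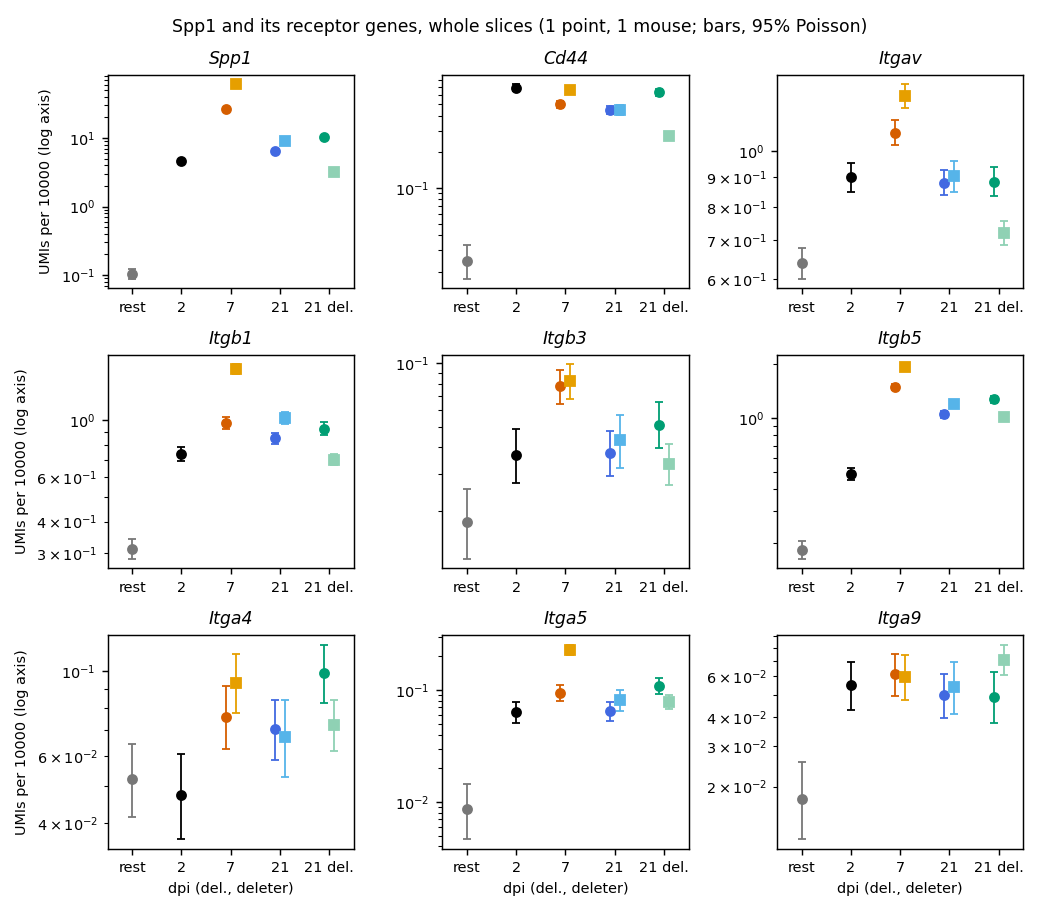
Level of Spp1 and its 8 receptor genes in every slice (UMIs per 10000 UMIs over all tissue spots, log axis). Points are slices, with circles and squares for the slices of a group, and bars are exact Poisson 95% intervals that cover counting error only. Spp1 spans 0.104 at rest to 60.6 at 7 dpi, while Itgav spans 0.639 to 1.25.

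Among the receptors, Cd44 (ENSMUSG00000005087, chromosome 2 from 102811141 to 102901665, minus strand) was scarce at rest and present at all times after injury. It was at 0.024 per 10000 at rest (40 UMIs), 0.686 at 2 dpi, 0.497 and 0.658 at 7 dpi, and 0.445 and 0.447 at 21 dpi in wild type. Cd44 at 2 dpi (interval 0.642 to 0.732) overlapped that of the second 7 dpi slice (0.615 to 0.703), while Spp1 at 2 dpi lay far below both 7 dpi slices. Itgb5 (ENSMUSG00000022817, chromosome 16), the β chain of the vitronectin receptor αvβ5, was at 0.183 at rest, 0.488 at 2 dpi, 1.49 and 1.92 at 7 dpi, and 1.05 and 1.20 at 21 dpi. Itgb1 (ENSMUSG00000025809, chromosome 8), the β1 chain that pairs with many α chains, was at 0.312 at rest, 0.740 at 2 dpi, 0.976 and 1.59 at 7 dpi, and 0.850 and 1.02 at 21 dpi. For both chains the rest slice was lowest, and the 7 and 21 dpi slices of Itgb1 overlapped.

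Itgav (ENSMUSG00000027087, chromosome 2), the αv chain of the arginine-glycine-aspartate receptors, was well expressed without injury. It was at 0.639 at rest, 0.901 at 2 dpi, 1.08 and 1.25 at 7 dpi, and 0.881 and 0.904 at 21 dpi in wild type. The remaining chains were rare throughout. Itga5 (ENSMUSG00000000555, chromosome 15), the α chain of the fibronectin receptor α5β1, was at 0.0086 at rest (14 UMIs), 0.063 at 2 dpi, 0.095 and 0.229 at 7 dpi, and 0.065 and 0.081 at 21 dpi. Itgb3 (ENSMUSG00000020689, chromosome 11), the β chain of αvβ3 of osteoclasts, was at 0.018 at rest, 0.037 at 2 dpi, 0.078 and 0.082 at 7 dpi, and 0.038 and 0.043 at 21 dpi. Itga4 (ENSMUSG00000027009, chromosome 2), the leukocyte α4 chain, lay between 0.047 and 0.099 in all 8 slices, and Itga9 (ENSMUSG00000039115, chromosome 9), the α9 chain, between 0.018 and 0.071. Itga4 at rest (0.052) lay within the range of the injured slices, whereas Itga5, Itgb3 and Itga9 were lowest at rest.

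All 9 genes passed the filter on low counts in each test. At 7 dpi against 21 dpi all 9 had a positive log2 difference over whole slices, but 0 of 9 passed the edgeR test. Of 15727 genes tested, 0.0127% were called higher and 0.0254% lower at 7 dpi, with 1946 genes at an unadjusted p under 0.05. The receptor differences ran from 0.27 for Itga9 (SE 0.21) to 1.20 for Itga5 (SE 0.45, adjusted p = 0.388), with a median over the 8 receptors of 0.46 against 0.0053 over all genes. DESeq2 called 1 of the 9, Spp1 at an adjusted p of 0.00309, and without the first 7 dpi slice edgeR called 3, namely Spp1, Itgb5 (0.83) and Itga5 (1.72). Without the second 7 dpi slice Itga5 was at 0.40, Cd44 at 0.18 (0.41 with it) and Itgb1 at 0.08 (0.50 with it).

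To place the genes relative to scar tissue, spots with at least 5 Col1a1 UMIs per 10000 were taken as fibrotic, and all others were ordered by their distance in spot steps. The ring is at 1 to 2 steps, the middle zone at 3 to 5 and the distant zone at 6 or more. Fibrotic spots numbered 112 and 392 at 7 dpi, 170 and 203 in wild type at 21 dpi, 193 and 274 in the deleter, 26 at 2 dpi and 3 at rest. Over the 6 slices at 7 and 21 dpi, deleter slices included, the ratio of fibrotic to distant level differed between the receptors. It was 1.17 to 2.45 for Itgav, 1.49 to 4.29 for Itga9 and 6.03 to 21.7 for Cd44. A higher level in fibrotic spots was common among all genes, as the shares called in the model below show (26.3% at 7 dpi and 29.8% at 21 dpi).

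Spp1 showed the largest step of the 9. Fibrotic spots held 140.2 and 140.0 Spp1 UMIs per 10000 at 7 dpi, 28.0 and 29.2 at 21 dpi in wild type, and 29.7 and 14.7 in the deleter. Distant spots held 5.36 and 1.43 at 7 dpi, 0.805 and 0.403 at 21 dpi in wild type, and 0.294 and 0.275 in the deleter. Within these 6 slices the fibrotic level was 26.1 to 101 times the distant one. At 2 dpi, the 26 fibrotic spots held 13.1 and the ring 12.1, against 3.52 in distant spots. Of those 26 spots, 17 were chosen on a single Col1a1 UMI and their median depth was 1309 UMIs, so that the zones at 2 dpi rest on few UMIs. The fibrotic spots of the 2 dpi slice held 1.24% of its Spp1 UMIs, while those of the 7 dpi slices held 29.5% and 75.1% and those of the 21 dpi wild-type slices 55.6% and 81.7%. These shares depend on how much of a slice was fibrotic. Of the UMIs of all genes, fibrotic spots held 56316 of 13091188 at 2 dpi. They held 846868 of 15016292 and 4393668 of 13512317 at 7 dpi. At 21 dpi in wild type they held 2236828 of 17496402 and 2853465 of 11332780. In the first 7 dpi slice, which had the fewest fibrotic spots of the 7 and 21 dpi slices, 48.0% of the Spp1-richest 10% of spots lay in the ring and 41.8% in fibrotic spots.

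The Spp1 level of fibrotic spots was lower at 21 than at 7 dpi, a comparison in which time and capture area coincide. Receptor levels in the same spots did not pass the test. As given above, distant spots also held less Spp1 at 21 dpi in both wild-type slices. The fibrotic-to-distant step of Spp1 differed between the times by -0.13 (SE 0.56), which did not pass (edgeR adjusted p = 0.965). Spp1 was 2.29 log2 units higher in fibrotic spots at 7 dpi (SE 0.16, edgeR adjusted p = 5.88e-05, n = 2 and 2 slices), the rank 9 gene of 12912 by p, and it was the only call among the 9, where 1.6% of all genes were called higher and 2.3% lower. Cd44 in fibrotic spots was at 1.25 and 1.04 at 7 dpi and at 1.39 and 1.04 at 21 dpi. Itgb5 was at 2.86 and 3.02 against 2.59 and 2.93, and Itgb1 at 2.49 and 2.62 against 2.39 and 2.33. The log2 differences of these 3 genes lay between -0.10 (Cd44, SE 0.20) and 0.11 (Itgb1, SE 0.15). Itgav was at 1.84 and 1.50 against 1.10 and 1.03, a difference of 0.64 (SE 0.18, adjusted p = 0.0892), Itgb3 differed by 0.96 (SE 0.34, adjusted p = 0.184) and Itga5 by 0.83 (SE 0.29, adjusted p = 0.170). Without the second 7 dpi slice Itga5 differed by 0.074, and with fibrotic spots of at least 10 Col1a1 UMIs per 10000 Itgb3 differed by 0.42. With no filter on low counts, Itgav and Itga5 also passed, at adjusted p-values of 0.0248 and 0.0192 in edgeR.

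Markers of other cell types were read in the same spots. The summed macrophage list (Cd68, Lyz2, Adgre1, Ms4a7, Gpnmb, Trem2) held 58.6 and 75.3 UMIs per 10000 in fibrotic spots at 7 dpi and 101 and 89.5 at 21 dpi in wild type, with all 6 markers detected in each. Leukocyte integrin chains outside the list differed in direction in the same spots. Itgam was at 1.75 and 1.02 at 7 dpi and at 0.711 and 0.799 at 21 dpi. Itgax was at 0.283 and 0.519, then 1.21 and 0.729. In distant spots the list held 5.92 and 2.84 at 7 dpi, compared with 3.62 and 1.94 at 21 dpi. The homeostatic microglia list held 4.85 and 3.45 in fibrotic spots at 7 dpi and 2.59 and 3.27 at 21 dpi. The fibroblast list, which includes the Col1a1 that defined the spots, held 52.2 and 94.2 at 7 dpi and 83.5 and 118 at 21 dpi. At 2 dpi the macrophage list was at 4.97 in fibrotic spots, with Gpnmb at 0, and the neutrophil list at 2.84 (16 UMIs), with Ly6g at 0. Plasma cell markers held 0.201 and 0.232 in fibrotic spots at 7 dpi and 9.18 and 13.1 at 21 dpi, and neutrophil markers 0.956 and 0.460, then 2.03 and 4.16. Of the neutrophil markers, Ly6g was at 0 there in both 7 dpi slices and the second 21 dpi slice. Retnlg was also at 0 in the first 7 dpi slice. Oligodendrocyte markers held 32.8 and 32.9 at 7 dpi, then 23.1 and 109 at 21 dpi. How far the mix of cells contributed to the levels of Spp1 and its receptors was not tested.

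**Figure D2:**
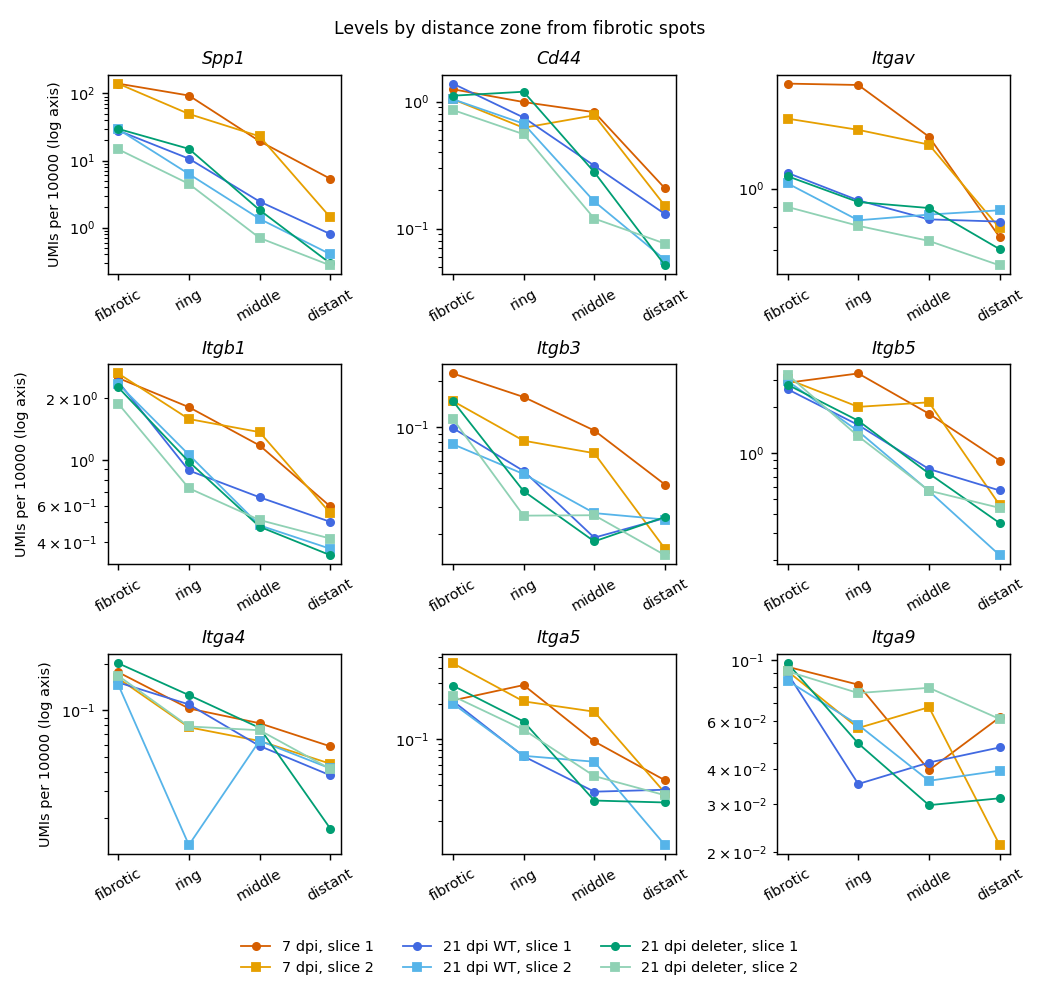
Level of each gene by zone in the 6 slices at 7 and 21 dpi (UMIs per 10000, log axis). Lines join the zones of 1 slice, from fibrotic spots to the ring, the middle and the distant zone, and colours tell the slices apart. Spp1 falls from 140.2 and 140.0 in fibrotic spots to 5.36 and 1.43 in distant spots at 7 dpi.

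In a model with slice as a block, all 9 genes were called higher in fibrotic than in distant spots at 7 dpi, and 8 of 9 at 21 dpi, where 26.3% and 29.8% of the 14224 genes tested were called higher and 23.9% and 25.9% lower. The model was fitted to the zone sums of the 4 wild-type slices, 2 at each time. Its error was pooled over both times, so an SE is not the spread between the 2 slices of a time. Spp1 was 5.64 log2 units higher at 7 dpi (SE 0.47, edgeR adjusted p = 4.06e-06) and 5.77 higher at 21 dpi (SE 0.48, adjusted p = 1.60e-06). By p these steps ranked 161 and 358 of the 14224 genes. The estimate at 7 dpi was 6.68 without the first and 4.79 without the second 7 dpi slice, and 4.46 with distant spots counted from 4 steps. Of the receptors, Cd44 was 2.78 higher at 7 dpi (SE 0.22, adjusted p = 3.04e-06) and 3.80 higher at 21 dpi (SE 0.23, adjusted p = 3.04e-07). Its distant level was 0.208 and 0.151 at 7 dpi, then 0.130 and 0.057 at 21 dpi, both lower than at 7 dpi, whereas its fibrotic levels overlapped between the times. The difference between the 2 times, -1.02 (SE 0.32), did not pass (edgeR adjusted p = 0.249).

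The β1 and β5 chains rose toward fibrotic spots at both times. Itgb1 went from 0.595 and 0.552 in distant spots to 2.49 and 2.62 in fibrotic spots at 7 dpi, 2.24 log2 units in the model (SE 0.18, edgeR adjusted p = 2.83e-06), and by 2.55 at 21 dpi (SE 0.18, adjusted p = 5.77e-07). Itgb5 went from 0.890 and 0.457 to 2.86 and 3.02 at 7 dpi, a difference of 2.27 (SE 0.33), and was 2.99 higher at 21 dpi (SE 0.35). Its value at 21 dpi was 3.84 without the first and 2.32 without the second 21 dpi wild-type slice. In both slices of each time the fibrotic levels of Itgb1 and Itgb5 lay above the distant ones without overlap.

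Itgav had a smaller step than Spp1, Cd44, Itgb1 and Itgb5 at both times. Its fibrotic and distant levels were 1.84 and 0.753 in the first 7 dpi slice, 1.50 and 0.794 in the second, 1.10 and 0.825 in the first 21 dpi wild-type slice and 1.03 and 0.881 in the second. The model gave 1.19 at 7 dpi (SE 0.15, edgeR adjusted p = 5.82e-05) and 0.42 at 21 dpi (SE 0.15, adjusted p = 0.0286). The call at 21 dpi held in 7 of 14 alternatives. It was lost with DESeq2 (adjusted p = 0.0957). In edgeR it was lost with no filter on low counts (0.149), library size alone (0.0705) and at 2 Col1a1 UMIs per 10000 (0.165). The Itgav value was 0.295 without the first and 0.541 without the second 21 dpi wild-type slice. The difference between the times, 0.76 (SE 0.21), did not pass (edgeR adjusted p = 0.193).

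Itga5 was 3.13 higher in fibrotic spots at 7 dpi (SE 0.43) and 3.02 higher at 21 dpi (SE 0.46), from distant levels of 0.012 to 0.044 to fibrotic levels of 0.200 to 0.442 in wild type. Without the first or the second 7 dpi slice its value at 7 dpi was 3.73 or 2.34, and without the first 21 dpi wild-type slice its value at 21 dpi was 4.04. Itgb3 was 2.79 higher at 7 dpi (SE 0.33) and 1.90 higher at 21 dpi (SE 0.35), with fibrotic levels of 0.224 and 0.148 at 7 dpi, compared with 0.098 and 0.077 at 21 dpi. Itga4 was 1.83 higher at 7 dpi (SE 0.47, edgeR adjusted p = 0.00625), a call lost without the first (adjusted p = 0.0879) or the second 7 dpi slice (0.192), and 2.06 higher at 21 dpi (SE 0.47, adjusted p = 0.00254). Itga9 was 1.25 higher at 7 dpi (SE 0.46, adjusted p = 0.0390), a call that held in 6 of 14 alternatives, with a value of 2.15 without the first and 0.69 without the second 7 dpi slice. At 21 dpi Itga9 was at 1.07 (SE 0.44, adjusted p = 0.0558), with adjusted p-values of 0.0264 to 0.241 over the alternatives, 4 of which passed. Over all 14224 genes, 2 (0.0141%) had a larger and 10 (0.0703%) a smaller step at 7 than at 21 dpi, and 0 of the 9 were among them in edgeR, with 1628 genes at an unadjusted p under 0.05 and 81 called by DESeq2.

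**Figure D3:**
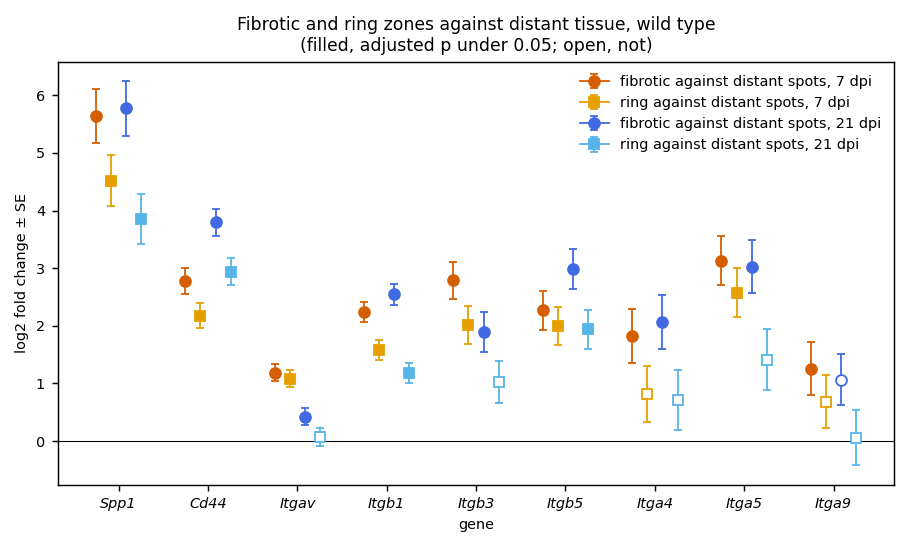
Log2 difference from distant spots of fibrotic and ring spots for the 9 genes, at 7 and 21 dpi in wild-type slices, with bars of 1 SE. Filled points have an adjusted p under 0.05 in edgeR. Spp1 lies at 5.64 and 5.77 in fibrotic spots, and Itgav at 21 dpi at 0.42 in fibrotic and 0.07 in ring spots.

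In the ring, 7 of the 9 genes were called higher than in distant spots at 7 dpi and 4 of 9 at 21 dpi, where 15.5% and 11.1% of all genes were called higher and 11.6% and 4.3% lower. Spp1 in the ring was at 93.2 and 49.5 at 7 dpi and at 10.7 and 6.31 at 21 dpi, which is 4.51 (SE 0.44, edgeR adjusted p = 6.51e-05) and 3.85 log2 units (SE 0.44, adjusted p = 4.21e-04) above distant spots. By p these differences ranked 61 and 44 of 14224 genes. Without the first 7 dpi slice the 7 dpi value was 5.12. Cd44 in the ring was at 0.992 and 0.622 at 7 dpi and 0.750 and 0.670 at 21 dpi, and its difference of 2.94 at 21 dpi (SE 0.24, adjusted p = 2.00e-04) ranked 2 of 14224 genes by p. Without the first 21 dpi wild-type slice that value was 3.54.

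Itgb1 and Itgb5 were the other 2 genes called in the ring at 21 dpi, at 1.18 (SE 0.18, edgeR adjusted p = 0.00122) and 1.94 (SE 0.34, adjusted p = 0.00285). Both calls were lost without the second 21 dpi wild-type slice (adjusted p = 0.0688 and 0.0594), and Itgb5 was at 2.67 without the first. Itgav was 1.08 higher in the ring at 7 dpi (SE 0.15, adjusted p = 3.61e-04) and 0.07 higher at 21 dpi (SE 0.15, adjusted p = 0.789), with ring levels of 1.83 and 1.41 against 0.933 and 0.831. Itgb3 (2.02, SE 0.33) and Itga5 (2.58, SE 0.43) were called in the ring at 7 dpi and not at 21 dpi, where their values were 1.03 (SE 0.37, adjusted p = 0.0824) and 1.41 (SE 0.53, adjusted p = 0.0919). Both passed at 21 dpi with fibrotic spots of at least 10 Col1a1 UMIs per 10000 (adjusted p = 0.0174 and 0.0118) or in patches of at least 10 (0.0462 and 0.0327), Itgb3 also with distant spots from 4 steps and Itga5 with no filter on low counts. Itga5 was at 2.49 without the first 21 dpi wild-type slice. The Itgb3 call at 7 dpi was lost without the first 7 dpi slice (adjusted p = 0.0570) and at 2 Col1a1 UMIs per 10000, where its value was 0.74. The difference between times was not tested for the ring. Itga4 and Itga9 in the ring passed at neither time.

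Step by step, Spp1 fell with distance at both times but from different heights. At 7 dpi the first slice had 118 at 1 step, 68.0 at 2, 30.8 at 3, 8.25 at 6 and 3.76 at 12, and the second had 54.0, 42.8, 32.6, 4.53 and 0.342 at the same steps. At 21 dpi the first wild-type slice had 14.5 at 1 step, 6.35 at 2, 3.13 at 3 and 0.389 at 12, and the second had 9.20, 1.88, 2.32 and 0.175. The 7 dpi level at 3 steps was thus close to the 21 dpi level inside fibrotic spots. Cd44, Itgb5 and Itgav were also higher a few steps from fibrotic spots at 7 dpi. At 4 steps Cd44 was at 0.837 and 0.863 at 7 dpi, compared with 0.266 and 0.176 at 21 dpi, and Itgb5 at 1.84 and 2.19 against 0.861 and 0.488. Itgav at 3 steps was at 1.53 and 1.60 against 0.669 and 0.847. These are examples of single steps and not a summary of the profiles. No test was run at single steps, and the share of all genes that differ there was not counted. Distance was counted in all directions, into the lesion as well as into the brain around it. The paper places its early fibroblast cluster around the lesion and its late one in the lesion core. The same step may therefore cover unlike tissue at 7 and 21 dpi. In the same middle zone of 3 to 5 steps the macrophage list held 18.8 and 29.4 at 7 dpi and 8.93 and 5.97 at 21 dpi, and the homeostatic microglia list 3.78 and 3.28 against 1.73 and 1.36.

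**Figure D4:**
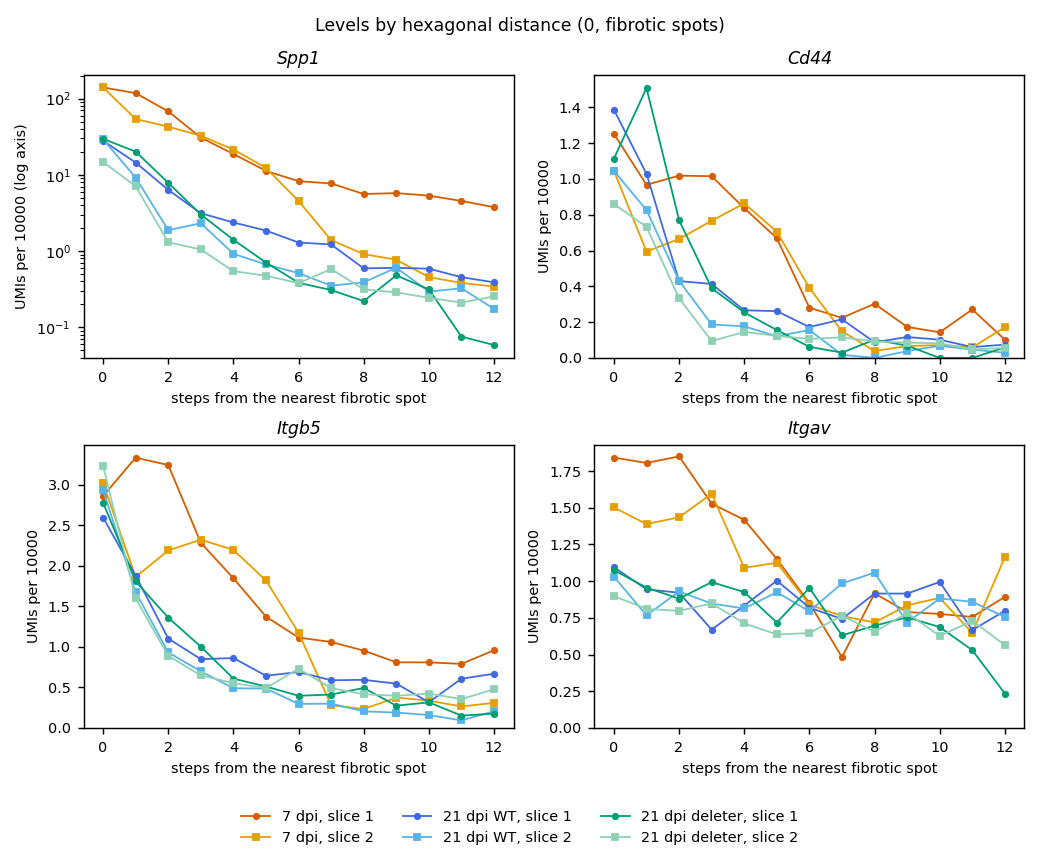
Level of Spp1, Cd44, Itgb5 and Itgav (UMIs per 10000, log axis for Spp1 and linear axes for the receptors) against distance from the nearest fibrotic spot in spot steps, with 0 for fibrotic spots, for the 6 slices at 7 and 21 dpi. Each line and colour is a slice. The 7 dpi lines of Spp1 lie above the 21 dpi lines near the fibrotic spots, and Cd44 at 4 steps is at 0.837 and 0.863 at 7 dpi against 0.266 and 0.176 at 21 dpi.

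In the 2 dpi slice Spp1 was read by zone and by depth. Its median spot had 0.385 Spp1 UMIs per 10000 and its richest 632.5, the highest of all 8 slices. Of the Spp1-richest 10% of its spots, 72.8% lay beyond the ring, 23.7% in the ring and 3.47% in fibrotic spots. Most of its spots also lay beyond the ring. Of 1726 spots, 817 were distant, 582 in the middle zone, 301 in the ring and 26 fibrotic. Spots of at least 1000 and under 5000 UMIs had a pooled level of 16.0 (15.3 to 16.7), against 5.40 (4.50 to 6.42) in spots of under 1000 UMIs and 3.25 (3.15 to 3.36) in spots of at least 5000. Cd44 was at 0.837, 0.675 and 0.669 in the same 3 classes. The neutrophil list was at 1.43 in this slice and 0.015 at rest, and the macrophage list at 2.87 and 0.372. At rest, Spp1 was higher in spots at the tissue edge (0.460, interval 0.361 to 0.578, 141 spots) than in the interior (0.065, interval 0.053 to 0.079, 876 spots).

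Over the spots of a slice, Spp1 went with the receptors to different degrees. Pearson correlations of log(1 + UMIs per 10000) were taken in each of the 4 wild-type slices at 7 and 21 dpi (827 to 1343 spots each). They are given as a description, since the spots of a slice share a section, a library and gradients of depth, and since sparse counts hold a correlation down. The mean r with Spp1 was 0.606 ± 0.101 (SD over 4 slices) for Itgb5, 0.526 ± 0.090 for Cd44 and 0.515 ± 0.064 for Itgb1. Of 12032 genes detected in at least 5% of spots in all 4 slices, 76, 141 and 161 had a higher mean r with Spp1 than these 3 receptors. It was 0.301 ± 0.063 for Itga5, 0.172 ± 0.102 for Itgav, 0.166 ± 0.011 for Itgb3, 0.114 ± 0.024 for Itga4 and 0.105 ± 0.023 for Itga9. Itgav was at 0.290 and 0.224 at 7 dpi and at 0.091 and 0.082 at 21 dpi. In the rest slice the values for Itgb5, Cd44 and Itgb1 were 0.162, 0.039 and 0.177, and at 2 dpi 0.180, 0.158 and 0.167. In spots thinned to 5000 UMIs they were 0.252, 0.246 and 0.282 at 2 dpi (715 of 1726 spots). The lowest wild-type values at 7 and 21 dpi were then 0.411, 0.296 and 0.304, a smaller gap. Thinning at 2 dpi leaves out the shallower spots. Among these, Spp1 was at 16.0 in spots of 1000 to under 5000 UMIs, against 3.25 in spots of at least 5000. A change of depth and a change of tissue therefore cannot be told apart here. The correlation of Spp1 itself with the log of a spot's UMIs was -0.425 and -0.367 at 7 dpi, then 0.183 and 0.091 at 21 dpi.

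Among all genes of the 12032, those whose pattern was most like that of Spp1 were found by mean r over the same 4 slices. Lyz2, which encodes macrophage lysozyme, came first with a mean r of 0.853, followed by Ftl1 (ferritin light chain, iron storage) at 0.841, Gpnmb (a lysosomal glycoprotein of phagocytes) at 0.831, Ctsd (cathepsin D) at 0.814 and Lgals3 (galectin 3) at 0.811. Ctsb, Ctsl, Tyrobp, Ctsz and Cyba completed the first 10, at 0.803 to 0.767. For every receptor but Itga4 and Itga9, genes of the first 10 for Spp1 were among the 3 nearest genes. For Itgb5 the 3 nearest were Ctsd at 0.675, the complement gene C1qb at 0.657 and the lipid carrier Apoe at 0.650. For Cd44 they were the intermediate filament gene Vim at 0.565, Ctsd at 0.546 and Ctsb at 0.533. For Itgb1 they were Ftl1 at 0.548, Lyz2 at 0.529 and Lgals3 at 0.522. For Itga5, Gpnmb, Ctsb and Lgals3 were at 0.317, 0.317 and 0.315, for Itgav, Ctsb, Psap and Lgmn at 0.218, 0.201 and 0.196, and for Itgb3, Lgals3, Mmp12 and Gpnmb at 0.189, 0.188 and 0.187. Itga4 was nearest to Wfdc17, Dcn and Mgp, at 0.137 to 0.131, and Itga9 to Lilrb4a, Fcgr2b and Lilr4b, at 0.125 to 0.115.

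**Figure D5:**
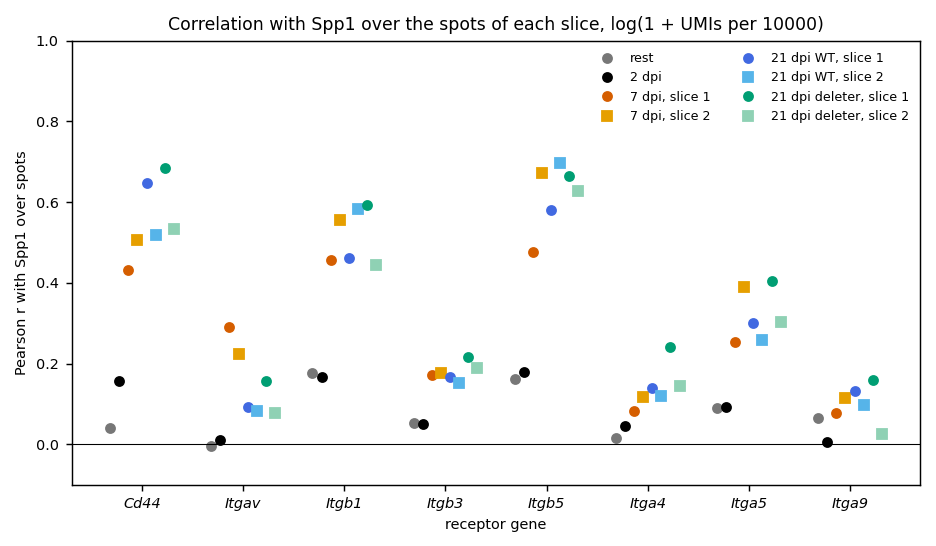
Pearson r between Spp1 and each receptor over the spots of each slice, on log(1 + UMIs per 10000). Points are the 8 slices, each in its own colour. Itgb5, Cd44 and Itgb1 lie highest in slices at 7 and 21 dpi, with means of 0.606, 0.526 and 0.515 over the 4 wild-type slices. All 3 are at or below 0.180 at rest and in the shallower 2 dpi slice. There, thinning the 715 spots of at least 5000 UMIs gives 0.246 to 0.282.

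As integrins work as pairs, spots thinned to 5000 UMIs were scored for UMIs of both chains, which in a spot of several cells need not mean the same cell. In fibrotic spots Itgav and Itgb5 were detected together in 48.1% (exact binomial 95% interval 34.3 to 62.2) and 36.1% (31.0 to 41.5) at 7 dpi, and in 24.5% (17.9 to 32.2) and 29.1% (22.7 to 36.1) at 21 dpi in wild type. In distant spots the pair was found in 13.1% and 4.0% at 7 dpi and 8.99% and 3.52% at 21 dpi. Itgav with Itgb1 was found in 35.2% and 31.0% of fibrotic spots at 7 dpi and 19.2% and 25.9% at 21 dpi. Cd44, which acts alone, was detected in 33.3% and 37.9% of fibrotic spots at 7 dpi and 36.4% and 33.3% at 21 dpi, against 11.6% and 9.50% and then 5.69% and 1.41% of distant spots. For Cd44 every fibrotic share lay above every distant share.

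The pairs with a rare chain were seen in few spots. Itga5 with Itgb1 was found in 3.70% and 13.4% of fibrotic spots at 7 dpi and 7.28% and 6.35% at 21 dpi. Itgav with Itgb3 was found in 9.26% and 3.58% at 7 dpi and 1.32% and 1.59% at 21 dpi, with 0 of 200 distant spots in the second 7 dpi slice, which allows a share of up to 1.50%. Itga4 with Itgb1 reached 1.85% to 5.82% and Itga9 with Itgb1 2.39% to 4.76% of fibrotic spots in these 4 slices. Fibrotic spots were shallower than distant ones at 7 dpi, and 54 and 335 of them reached 5000 UMIs, with 151 and 189 at 21 dpi. Unthinned, Itgav with Itgb5 was found in 46.4% and 60.5% of fibrotic spots at 7 dpi and 55.3% and 61.1% at 21 dpi, and Cd44 in 42.0%, 52.8%, 57.1% and 60.1%.

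Genes around the osteopontin pathway were read from lists by role, in which each list's counts stand beside the shares of all genes called above. Of 11 tested ligands that share these receptors (14 listed), 9 were higher in fibrotic than distant spots at 7 dpi and 11 at 21 dpi, with 0 lower and median log2 differences of 4.23 and 4.05. They included Postn, the matricellular periostin, at 6.01 (SE 0.41) and 4.64 (SE 0.42), and Thbs1, thrombospondin 1, at 5.14 (SE 0.46) and 5.10 (SE 0.43). Within fibrotic spots, 3 of the ligands were called higher and 2 lower at 7 than at 21 dpi. Postn (1.46, SE 0.18) and Tnc (tenascin C, a ligand of α9β1, 0.99, SE 0.19) were higher at 7 dpi. Mfge8 (a bridging protein for phagocytosis through αv integrins, -2.11, SE 0.35) and Vcam1 (the α4β1 ligand, -0.76, SE 0.17) were lower at 7 than at 21 dpi. Of the other bone glycoproteins of the Spp1 gene family, Ibsp (bone sialoprotein) was at 0.0118 and 0.426 in fibrotic spots at 7 dpi and at 0.107 and 0 at 21 dpi, Dmp1 was called higher at 7 dpi (1.89, SE 0.49) and lower at 21 dpi (-2.37, SE 0.73) on few UMIs, and Mepe and Dspp were not tested.

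Of 9 tested genes for enzymes that cleave, crosslink or dephosphorylate osteopontin (12 listed), 8 were higher in fibrotic than distant spots at 7 dpi and 9 at 21 dpi, with 0 lower. The metalloproteinases Mmp3 and Mmp12 were at 6.94 (SE 0.59) and 4.35 (SE 0.52) at 7 dpi and at 6.18 (SE 0.44) and 6.67 (SE 0.64) at 21 dpi, and Acp5, the phosphatase of osteoclasts and macrophages, was at 4.87 (SE 0.50) and 5.16 (SE 0.49). Mmp3 was at 0.0055 and 0.0027 in distant spots at 7 dpi, so its step there rests on few distant UMIs. Within fibrotic spots Mmp9 was higher at 7 dpi (2.25, SE 0.38), while Mmp3 (-1.64, SE 0.35) and the transglutaminase Tgm1 (-3.21, SE 0.30) were lower. Of 15 other integrin subunits tested (19 listed), 9 were higher at 7 dpi and 10 at 21 dpi with 0 lower, among them the leukocyte chains Itgax (4.07, SE 0.46, and 4.68, SE 0.40) and Itgb2 (2.90, SE 0.34, and 3.95, SE 0.35) and the fibroblast collagen receptor chain Itga11 (3.51, SE 0.87, and 4.45, SE 0.74). None of them was called between the times within fibrotic spots. Itga11 was at 0.0188 and 0 in distant spots at 7 dpi, so its step there rests on few UMIs.

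Of 11 tested genes for hyaluronan turnover and CD44 partners (15 listed), 7 were higher in fibrotic than distant spots at 7 dpi and 9 at 21 dpi, with 0 lower. Msn, the moesin that ties CD44 to actin, was at 2.68 (SE 0.25) and 3.15 (SE 0.26), and Has2, a hyaluronan synthase, at 4.34 (SE 0.73) and 2.74 (SE 0.85). Within fibrotic spots the hyaluronan-binding genes Hmmr (2.34, SE 0.40) and Vcan (versican, 2.01, SE 0.24) were higher at 7 dpi, while Cd44 itself differed by -0.10. Of the 14 cytoplasmic integrin adaptors, 8 were higher and 4 lower at each time. Fermt3, the kindlin of blood cells, was at 2.85 (SE 0.29) and 3.27 (SE 0.31), and the kinase gene Ptk2b, which neurons also express, at -1.34 (SE 0.21) and -1.81 (SE 0.21). Over whole slices between 7 and 21 dpi, and in the difference of the fibrotic step between the times, 0 genes of these lists passed in edgeR.

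Between deleter and wild type at 21 dpi, none of the 9 genes was called (adjusted p = 0.999 for each in edgeR), nor any of the 15708 genes tested, 0% higher and 0% lower, with 529 at an unadjusted p under 0.05 and 12 called by DESeq2. Spp1 differed by 0.10 log2 units in wild type over deleter (SE 0.52), with deleter levels of 10.5 and 3.18 around the wild-type 6.44 and 9.02. Itga4 was at 0.099 and 0.072 in the deleter slices and at 0.070 and 0.067 in wild type, a difference of -0.38 (SE 0.21). Without the first deleter slice Spp1 differed by 1.19 and without the second by -0.52, and neither passed.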

How the data were processed

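The authors sequenced 4 Visium capture areas and counted UMIs per spot and gene with Space Ranger 2.0.0 on mm10, per the submitters' processing notes. The deposited counts are unnormalized and carry no slice labels. Each area held 2 tissue pieces, taken as slices by their outlines. In the area of rest and 2 dpi the piece of 1017 spots was taken as rest and that of 1726 as 2 dpi. Slices are numbered by position, and the number carries no meaning.

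Here UMIs were summed per slice, or per slice and zone (zones of at least 20 spots), and tested with edgeR 4.0.16 in R 4.3.3 (quasi-likelihood F test, TMM, filterByExpr, Benjamini-Hochberg over all genes tested, threshold 0.05). The SE is the absolute log2 difference over the square root of F. Zone tests had slice as a block and separate zone effects for each time. Each group had at most 2 slices, which are separate mice, so precision is limited by their number. A spot is no replicate. Time or genotype and capture area coincide in the whole-slice and fibrotic-spot tests. Single counts have exact Poisson and shares exact binomial 95% intervals, for counting error only, from Python 3.11.15 with numpy 2.4.6, scipy 1.17.1 and pandas 2.3.3. Spots were thinned to 5000 UMIs without replacement, leaving out shallower spots.

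On simulated counts with 100 genes changed per size, edgeR recovered 27% of genes at a log2 change of 1 and 98% at 2 in the whole-slice test of 7 against 21 dpi (15698 genes). In the fibrotic-spot test (12877 genes) it recovered 19% and 99%, in the fibrotic against distant test at 7 dpi (13899 genes) 27% and 92%, and in the difference of that step between times (13899 genes) 3% and 47%. In the test of wild type against deleter (15722 genes) it recovered 17% and 99%. The simulation gave all genes the same dispersion of 0.05 and changed only genes with high counts. The shares therefore do not describe rare chains such as Itgb3, nor genes that vary more between slices than was simulated.

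The members and gene lists were chosen with earlier results of these data known. All 9 members are named. Besides them the text names the 10 genes with the highest mean r with Spp1, the 3 with the highest for each receptor, and at most 4 called genes per list and comparison, by largest change. Positions of genes were read from the GENCODE M21 annotation (GRCm38). Alternatives were DESeq2 1.42.0, no filter on low counts, library size without TMM, spots of at least 1000 UMIs, deleter slices in the fit, other fibrotic and distant thresholds, no slice block, and leaving out each slice.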

Additional observations from a re-analysis of the deposited data

How the results depend on the processing

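Over whole slices at 7 against 21 dpi, 0 members were called, against 1 with DESeq2, 1 with no filter on low counts and 0 to 3 when a slice was left out. Spp1 was past the threshold with DESeq2 (2.53) and with no filter (2.54), and lay between 1.82 and 3.03 when a slice was left out. In fibrotic spots 1 member was called, and 3 with no filter. The difference of the fibrotic step between times called 0 members, but 2 with fibrotic spots of at least 2 Col1a1 UMIs per 10000 (Cd44 -2.92, Itgb5 -1.41), 1 with patches of at least 10 fibrotic spots (Cd44 -1.53) and 1 with distant spots from 4 steps (Cd44 -1.55). In the ring at 21 dpi, 4 members were called, 6 with at least 10 Col1a1 UMIs or with patches, and 2 to 4 when a slice was left out. All signs of called member values held under the alternatives run. The cause of these shifts was not tested.

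The mean r with Spp1 was lower in spots thinned to 5000 UMIs and higher when each spot was summed with its neighbours. Thinned values were 0.388 for Cd44, 0.399 for Itgb1, 0.105 for Itgb3, 0.488 for Itgb5, 0.0556 for Itga4, 0.196 for Itga5 and 0.0690 for Itga9. Sums with neighbours gave 0.775 for Cd44, 0.382 for Itgav, 0.789 for Itgb1, 0.374 for Itgb3, 0.833 for Itgb5, 0.238 for Itga4, 0.609 for Itga5 and 0.200 for Itga9. Without fibrotic spots Itgb1 was at 0.431, Itgb3 at 0.135 and Itga4 at 0.0316, and by Spearman's rho Itgb3 was at 0.147.

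Counts over all genes moved more. Whole-slice calls were 6, against 398 with DESeq2, 267 with no filter, 1 with deleter slices in the fit, and 335 and 39 without the first and the second 7 dpi slice. In fibrotic spots 503 genes were called, against 304 with DESeq2, 1123 with no filter, 187 at 2 Col1a1 UMIs per 10000, 266 and 236 without a 7 dpi slice and 863 without the first 21 dpi slice. At 7 dpi 7134 genes were called between fibrotic and distant spots, and 3284 without the second 7 dpi slice. Ring calls at 7 dpi were 3858, against 1632 at 2 Col1a1 UMIs, 2454 with no block, and 930 and 2278 without a 7 dpi slice. At 21 dpi they were 2196, against 520 at 2 and 3504 at 10 Col1a1 UMIs, 1139 with no block and 469 without the second 21 dpi slice. The difference between times called 12, against 81 with DESeq2, 252 with no filter, 39 with the deleter, 651 at 2 and 1 at 10 Col1a1 UMIs, 101 with patches, 115 with distant spots from 4 steps, 0 with no block and 0 to 200 without a slice. Wild type against deleter called 0, against 12 with DESeq2, 40 with no filter and 3 without the second deleter slice. Zone tests compared zones within slices, while tests between groups were unpaired, as their slices come from different mice.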

Other observations

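Spp1 at the tissue edge differed in direction between slices. Edge spots of the first 7 dpi slice held 46.7 Spp1 UMIs per 10000 (exact Poisson 95% interval 45.8 to 47.6, 227 spots) against 23.2 (23.0 to 23.5) in its interior, while those of the second held 35.4 (34.6 to 36.2, 139 spots) against 65.1 (64.6 to 65.5). In both 21 dpi wild-type slices the edge was lower, at 5.31 against 6.58 and at 7.28 against 9.31. The share of all Spp1 UMIs found beyond 5 steps from fibrotic tissue was 12.1% and 0.657% in the 2 slices at 7 dpi, 5.65% and 1.60% in wild type at 21 dpi, and 61.6% at 2 dpi. These shares depend on how much of a slice lay there. Of the UMIs of all genes, such spots held 9056552 of 15016292 and 3766208 of 13512317 at 7 dpi. They held 7903930 of 17496402 and 4041394 of 11332780 in wild type at 21 dpi, and 10465241 of 13091188 at 2 dpi.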
